A study of Mus musculus with 10 samples.

Results

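Genes of the interleukins and of their receptors were examined in whole lung tissue of male mice of the inbred strain C57BL/6 at 6 to 8 weeks of age. The members were all genes whose platform annotation gave a single symbol made of Il and a number, without the enzyme gene Il4i1, and there were 65 of them among 12393 named genes. They comprised 33 ligand genes, 31 receptor genes and Il18bp, which encodes a soluble binding protein and was kept apart. Of 10 mice, 5 breathed room air (normoxia) and 5 were exposed to intermittent hypoxia, in which inspired oxygen falls and recovers repeatedly. Each lung was hybridised to its own Affymetrix Mouse Genome 430A 2.0 array. No genetic change, drug or other agent was labelled in either group, and how low the oxygen fell, how long exposure lasted and when lungs were taken is not given in the sources used here. According to its title, the study concerned the alveolar surface of adult lungs in chronic intermittent hypoxia, and the comparison asked which interleukin and receptor transcripts differed between exposed and control lungs.

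Interleukins are secreted proteins through which leukocytes, epithelium and stroma signal to each other. Most act through paired receptor chains at the cell surface, and many receptors share a chain, such as gp130 (Il6st) for the interleukin-6 family or Il17ra for the interleukin-17 family. Receptors of the interleukin-1 and interleukin-17 families signal through adaptor proteins, and most other receptors signal through Janus kinases and STAT transcription factors. In lung, epithelium and stroma store interleukin-33 and interleukin-18, while lymphocytes, macrophages, mast cells and innate lymphoid cells make most of the other ligands.

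Promoters are shown for 3 members that differed and had a signal at or above the median of all probe sets, Il16 and Il7r (higher) and Il6ra (lower). Il17ra, which was also higher at such a signal, had no listed window and is not shown. Each window runs from 250 bases before to 50 bases after a transcript start, on the minus strand of GRCm38.p6 as listed by RefSeq, written 5′ to 3′. Capitals mark matches on either strand to ACGTG and GCGTG, the core letters that hypoxia-inducible factors can bind, and to TTCNNNGAA, the letters of a STAT element.
Il16, chr7:83735490-83735789: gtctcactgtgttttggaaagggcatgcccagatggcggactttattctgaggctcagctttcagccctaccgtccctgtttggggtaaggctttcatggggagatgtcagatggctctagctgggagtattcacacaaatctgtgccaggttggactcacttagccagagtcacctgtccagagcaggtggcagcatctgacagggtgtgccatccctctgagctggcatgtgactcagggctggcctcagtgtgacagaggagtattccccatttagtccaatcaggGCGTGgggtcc
Il7r, chr15:9529827-9530126: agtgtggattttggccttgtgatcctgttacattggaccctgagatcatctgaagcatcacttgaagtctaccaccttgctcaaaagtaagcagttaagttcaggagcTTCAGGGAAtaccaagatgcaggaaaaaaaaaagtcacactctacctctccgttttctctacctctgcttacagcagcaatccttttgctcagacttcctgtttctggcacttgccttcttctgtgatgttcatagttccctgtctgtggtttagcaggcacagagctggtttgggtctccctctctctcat
Il6ra, chr3:89913147-89913446: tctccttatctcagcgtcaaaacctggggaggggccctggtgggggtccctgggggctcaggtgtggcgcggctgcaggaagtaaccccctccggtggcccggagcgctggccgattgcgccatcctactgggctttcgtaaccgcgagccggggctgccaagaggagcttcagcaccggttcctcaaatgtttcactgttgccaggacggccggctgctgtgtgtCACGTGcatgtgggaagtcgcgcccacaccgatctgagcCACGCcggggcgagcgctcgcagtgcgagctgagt
The Il6ra window held CACGTG, the E-box letters that clock and MYC family factors can bind, which contains ACGTG on both strands, and a GCGTG match nearer to the start. The Il16 window held 1 GCGTG match and the Il7r window held 1 TTCNNNGAA match. RefSeq listed 3 windows for Il16, of which 2 held GCGTG. Of all 32817 windows in the table, 19.6% held ACGTG, 32.4% held GCGTG, 7.15% held CACGTG and 8.29% held TTCNNNGAA. Among 50 members with a window, matches were found in 5 genes for ACGTG, in 16 for GCGTG, in 2 for CACGTG (Il6ra and Il1r2) and in 9 for TTCNNNGAA. A gene can have several windows, so these gene counts are not shares of windows. Of the 63 windows of members, 5 held ACGTG, 18 GCGTG, 2 CACGTG and 9 TTCNNNGAA. A match describes letters and does not show a bound site.

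Values are log2 levels of a probe set, so a difference of 1 is a doubling, and a level of 1 probe set cannot be set against that of another. Array medians lay between 7.69 and 7.73. The standard deviation over all probe sets was 1.89 to 1.93 for normoxia arrays 2 to 4, narrower than the 1.99 to 2.05 of the remaining 7 arrays, and the called members are also given without these 3 arrays. Alveolar epithelial markers all lay above the median of all probe sets. Each gene was read from its brightest probe set on average, and genes were marked by whether that mean reached the median of all probe sets, 7.70. The mark divided the members into 19 at or above it and 46 below it. Il1rap at 7.73 lay just inside and Il1rn at 7.69 just outside.

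At a limma adjusted p below 0.05, 9 of the 65 members changed, 3 higher and 6 lower after intermittent hypoxia. This is 13.8% of the members, beside 12.5% of all genes and 11.9% of all probe sets, so the share was near the background. By role, 2 of 33 ligand genes (Il16 higher, Il4 lower) and 7 of 31 receptor genes (Il17ra and Il7r higher, Il6ra, Il1rl2, Il1rapl2, Il13ra2 and Il12rb2 lower) changed. Over all genes 8.93% were higher and 3.6% lower. Among members at or above the median mark 3 rose and 1 fell, while 16.6% of all such genes were called, 13.6% higher and 3% lower. Among the 46 below it 0 rose and 5 fell, while 6.85% of all such genes were called, 2.42% higher and 4.43% lower, and by limma's unadjusted p below 0.05 the 46 held 3 higher and 12 lower, beside 6.5% and 17.6% of all such genes. The groups did not overlap in 6 members, 3 higher and 3 lower, beside 8.61% of all genes (5.76% higher and 2.85% lower). Because these are bulk samples, fewer cells of a type and less RNA per cell cannot be told apart.

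**Figure D1:**
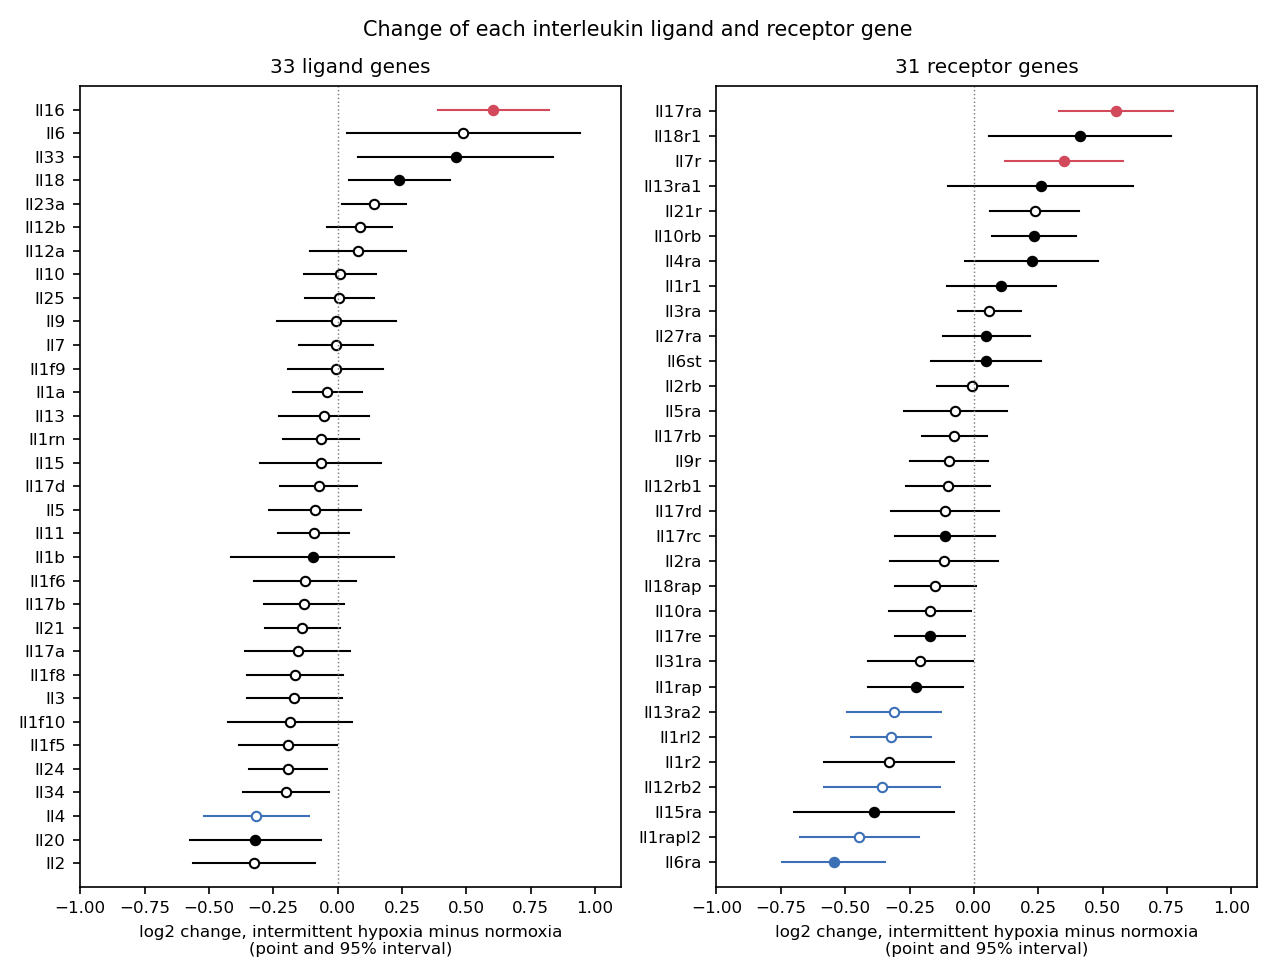
Log2 change of every ligand and receptor gene, intermittent hypoxia minus normoxia, as the limma estimate with its 95% interval; filled points lie at or above the median of all probe sets, open points below it, red marks genes called higher and blue genes called lower. Il16 leads the ligands at 0.61, and the receptors run from -0.55 for Il6ra to 0.55 for Il17ra.

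These counts moved with single arrays. Without normoxia array 2, 3 or 4, the receptor genes called were 3, 4 and 2, and without hypoxia array 1, 3 or 4 they were 4, 3 and 4, while without normoxia array 5 they were 13. The ligand genes called were 1 without any of normoxia arrays 2 to 4 or hypoxia arrays 1, 3, 4 and 5, and 5 without normoxia array 5. Il16, Il17ra and Il6ra passed in each of the 10 fits that dropped 1 array. With normoxia arrays 2 to 4 all dropped, which leaves 2 normoxia arrays, limma called 0 ligand and 0 receptor genes. In quantile-normalized values 4 members were higher and 5 lower, beside 3 and 6 as deposited, and the share of all called probe sets that were higher was 59.1%, beside 71.2% as deposited.

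Among ligands, Il16 showed the one rise that passed the test. Il16 encodes a precursor whose released part attracts CD4+ cells, and lymphocytes are a known source. Its log2 levels were 7.61, 7.55, 7.23, 7.73 and 7.58 in normoxia and 8.41, 7.95, 8.14, 8.09 and 8.12 in intermittent hypoxia. Every hypoxia array lay above every normoxia array, and the change of 0.61 (SE 0.10, limma adjusted p = 0.00622) is 1.52-fold. It was 0.55 (adjusted p = 0.130) with normoxia arrays 2 to 4 dropped. The other probe set of Il16 differed by 0.23 and did not pass (adjusted p = 0.163).

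Il4, the signature cytokine of type 2 helper cells, was the ligand that fell, at a signal below the median mark. Its levels were 6.26, 6.40, 6.54, 6.64 and 6.20 in normoxia and 5.92, 6.27, 6.11, 6.01 and 6.15 in intermittent hypoxia. Its 3 highest values stood on normoxia arrays 2, 3 and 4, and the groups overlapped. Il4 fell by 0.32 (log2; SE 0.09, limma adjusted p = 0.0465), which no longer passed if normoxia array 2, 3 or 4 was dropped, or hypoxia array 1, 3, 4 or 5 (adjusted p up to 0.118), and with quantile normalization (0.0706). The change was -0.14 with normoxia arrays 2 to 4 dropped together.

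Of the alarmins that lung structural cells store, Il33 and Il18 had positive changes that did not pass. Il33, released by damaged epithelial and stromal cells, measured 9.59, 9.57, 9.53, 9.14 and 9.32 in normoxia and 9.59, 9.9999, 9.78, 10.59 and 9.48 in intermittent hypoxia. Hypoxia array 4 was the highest, hypoxia array 5 lay inside the normoxia range and hypoxia array 1 lay at its upper edge. The change of 0.46 had a 95% interval of 0.08 to 0.84 (limma adjusted p = 0.0982). Il18, a leaderless cytokine cut by caspase-1, differed by 0.24 (SE 0.09, adjusted p = 0.0970). Its binding protein Il18bp, below the median mark, differed by -0.03 (SE 0.07, adjusted p = 0.783).

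Il6, an acute-phase cytokine with a signal below the median mark, was low on 8 arrays and higher on 2. Its levels were 4.69, 4.60, 4.62, 4.46 and 4.66 in normoxia and 4.73, 4.72, 4.65, 5.94 and 5.43 in intermittent hypoxia. Hypoxia arrays 4 and 5 held the 2 highest values, and hypoxia array 3 lay inside the normoxia range. The change of 0.49 (SE 0.21, 95% interval 0.04 to 0.94) did not pass (limma adjusted p = 0.131). Il1b, a central inflammatory cytokine of macrophages, spanned 8.12 to 8.94 on normoxia arrays and 8.12 to 8.72 on hypoxia arrays, so the groups overlapped. Its change was -0.10 (95% interval -0.41 to 0.22, adjusted p = 0.679).

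The ligands with the smallest p that did not pass were Il2, Il24, Il20 and Il18, then Il34 and Il33. Of these, Il2, Il24 and Il34 lay below the median mark, as did Il23a. Il2, the T cell growth factor, differed by -0.33 (SE 0.11, limma adjusted p = 0.0682). Il24 and Il20, cytokines of the interleukin-10 family that act on epithelium, differed by -0.19 and -0.32 (adjusted p = 0.0839 and 0.0899). Il34, a second ligand of the macrophage growth factor receptor Csf1r, differed by -0.20 (adjusted p = 0.0982). In Il2, Il20 and Il24, as in Il4, normoxia arrays 2 to 4 held the 3 highest values, and with these dropped the changes were -0.11 for Il2, -0.05 for Il20 and -0.09 for Il24. Il23a, a subunit of interleukin-23, differed by 0.14 with groups that did not overlap, with 6.03 to 6.16 on normoxia arrays and 6.16 to 6.34 on hypoxia arrays, and did not pass (adjusted p = 0.112), though it passed with quantile normalization.

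The remaining ligands, all below the median mark, had changes between -0.19 and 0.09. They included Il5 (-0.09) and Il13 (-0.05), the other type 2 cytokines, and Il17a (-0.16), the neutrophil-recruiting cytokine of helper T cells. Il10, an anti-inflammatory cytokine, differed by 0.01 (95% interval -0.13 to 0.15), and Il7, the stromal growth factor of lymphocytes, by -0.01 (95% interval -0.15 to 0.14). Il1rn, the natural antagonist of the interleukin-1 receptor, differed by -0.06, and Il1a by -0.04. The interleukin-36 group lay in the same range, with Il1f6 at -0.13, Il1f8 at -0.16, Il1f9 at -0.01 and the antagonist Il1f5 at -0.19. Of the 33 ligands, 9 had a positive and 24 a negative change, with a median of -0.07, beside 0.01 over all genes. Of these ligands 28 lay below the median mark, with a median change of -0.08, beside -0.06 over all genes below it. The 5 at or above it had a median of 0.24, beside 0.09 over all such genes.

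Among receptors, Il17ra had the largest rise and Il6ra the largest fall of those that passed. Il17ra, the common chain of interleukin-17 receptors, measured 8.16, 7.69, 7.98, 8.01 and 8.09 in normoxia and 8.66, 8.42, 8.31, 8.76 and 8.55 in intermittent hypoxia. The groups did not overlap, and the rise of 0.55 (SE 0.10, limma adjusted p = 0.00903) is 1.47-fold. It was 0.41 (adjusted p = 0.231) with normoxia arrays 2 to 4 dropped. The other probe set of Il17ra rose as well, by 0.28 (SE 0.07, adjusted p = 0.0299), but no longer passed if normoxia array 2 or 4 or hypoxia array 1, 3 or 4 was dropped (adjusted p up to 0.0785). It was the one member with several probe sets in which each passed.

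None of the other measured interleukin-17 receptor chains passed as deposited. Il17rc, which pairs with Il17ra for interleukin-17A, differed by -0.11 (95% interval -0.30 to 0.08). Il17re, the interleukin-17C chain of epithelium, differed by -0.17 (SE 0.06, limma adjusted p = 0.0868). Il17re passed with quantile normalization (-0.32, adjusted p = 0.0320), in the SAM-type test and without normoxia array 1. Il17rb, the interleukin-25 chain, differed by -0.08. Il17rd, which can modulate the complex, differed by -0.11. Both Il17rb and Il17rd lay below the median mark. Whether these chains differed from Il17ra in their response was not tested.

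Il6ra is the ligand-binding chain of the interleukin-6 receptor. Its levels were 9.63, 9.62, 9.60, 9.68 and 9.99 in normoxia and 8.97, 9.12, 9.12, 9.37 and 9.22 in intermittent hypoxia. All hypoxia arrays lay below all normoxia arrays, and normoxia array 5 stood above the other 4. The log2 level fell by 0.55 (SE 0.09, limma adjusted p = 0.00660) to 0.685 of that in normoxia. The change was -0.65 (adjusted p = 0.114) with normoxia arrays 2 to 4 dropped, a larger change with fewer arrays. The other probe set of Il6ra differed by -0.07 (adjusted p = 0.399). Il6st, the shared signalling chain gp130, differed by 0.05 (95% interval -0.17 to 0.26).

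**Figure D2:**
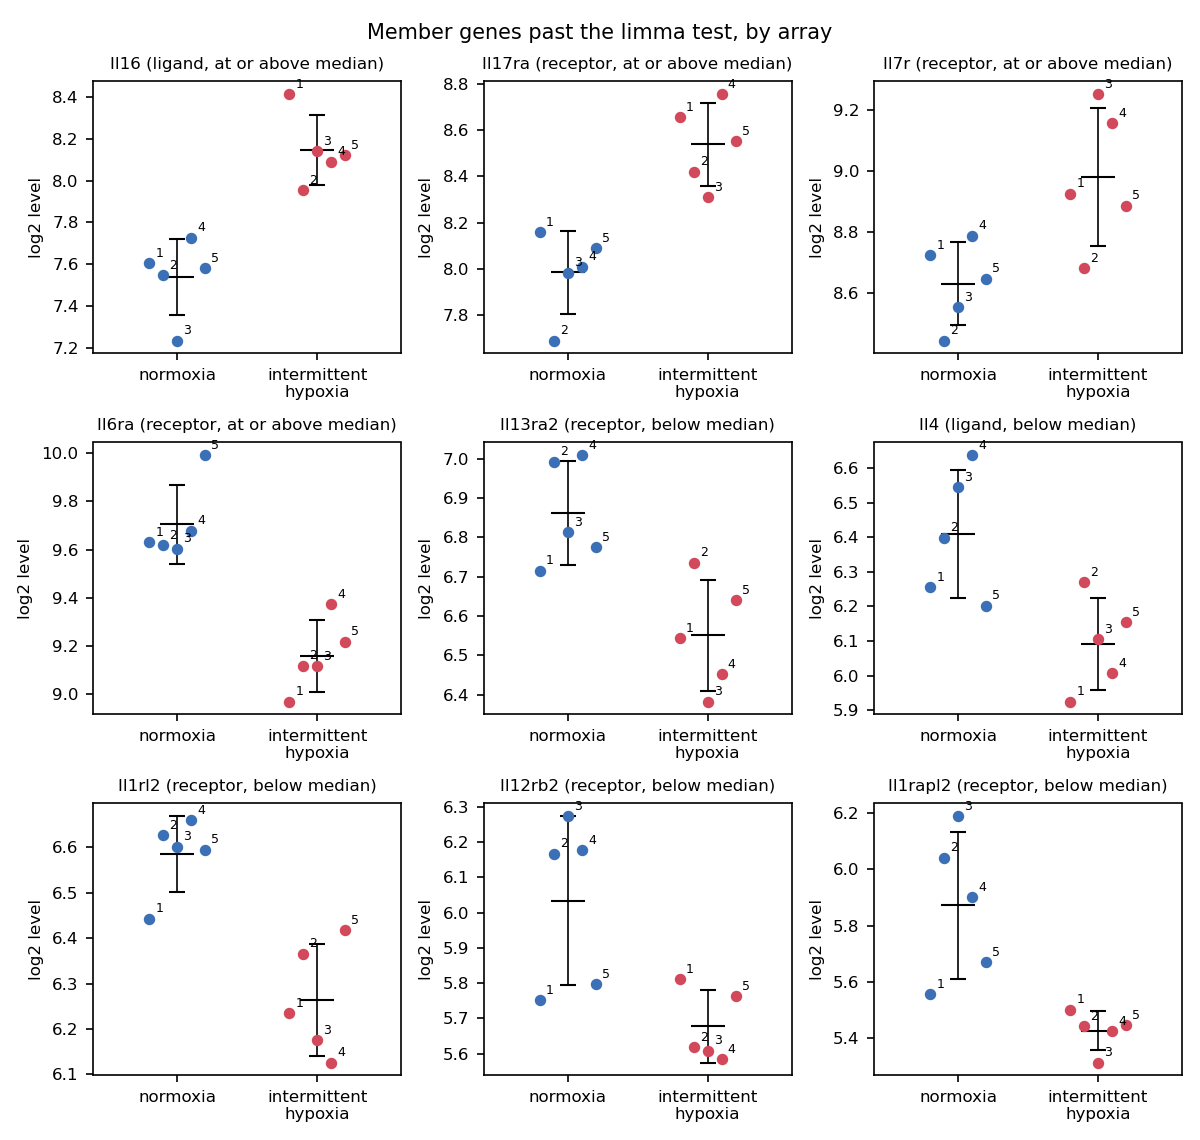
Log2 levels of the 9 members that passed the test, 1 panel per gene, with a point per array, its replicate number beside it, and the group mean with its SD (n = 5). In Il16, Il17ra, Il6ra, Il1rl2 and Il1rapl2 the groups separate without overlap. In each of the 5 members called below the median mark, which include Il1rl2 and Il1rapl2, normoxia arrays 2, 3 and 4 hold the 3 highest values.

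Il7r, the interleukin-7 receptor chain of lymphocytes and innate lymphoid cells, also serves the epithelial cytokine TSLP. Its levels were 8.72, 8.44, 8.55, 8.79 and 8.65 in normoxia and 8.92, 8.68, 9.25, 9.16 and 8.89 in intermittent hypoxia. The groups overlapped through hypoxia array 2. The rise of 0.35 (SE 0.11, limma adjusted p = 0.0481) no longer passed if normoxia array 2, 3 or 4 was dropped, or hypoxia array 1, 3, 4 or 5 (adjusted p up to 0.111), with quantile normalization (0.0852), or with the mean of both probe sets. The change was 0.30 with normoxia arrays 2 to 4 dropped together. The other probe set of Il7r differed by 0.29 and did not pass (adjusted p = 0.171).

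The other 4 receptor genes that fell had signals below the median mark. Il1rl2, the interleukin-36 receptor chain, measured 6.44, 6.63, 6.60, 6.66 and 6.59 in normoxia and 6.23, 6.37, 6.18, 6.13 and 6.42 in intermittent hypoxia. The groups did not overlap, and it fell by 0.32 (SE 0.07, limma adjusted p = 0.0170), a call lost without normoxia array 4 (0.0511). The change of Il1rl2 was -0.26 (adjusted p = 0.401) with normoxia arrays 2 to 4 dropped. Il1rapl2, a receptor-like gene known mainly from the nervous system, measured 5.56, 6.04, 6.19, 5.90 and 5.67 in normoxia and 5.50, 5.44, 5.31, 5.43 and 5.45 in intermittent hypoxia. It fell by 0.45 (SE 0.11, adjusted p = 0.0217) without overlap, but no longer passed if normoxia array 2 or 4 or hypoxia array 3 was dropped (adjusted p up to 0.0580). Its change was -0.19 with normoxia arrays 2 to 4 dropped. The other probe set of Il1rapl2 differed by -0.0045, and the mean of both did not pass.

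Il13ra2, a decoy receptor that binds interleukin-13, measured 6.72, 6.99, 6.81, 7.01 and 6.77 in normoxia and 6.54, 6.74, 6.38, 6.45 and 6.64 in intermittent hypoxia. The groups met at normoxia array 1 and hypoxia array 2, and it fell by 0.31 (SE 0.08, limma adjusted p = 0.0339). Il12rb2, the signalling chain of the interleukin-12 receptor, measured 5.75, 6.17, 6.27, 6.18 and 5.80 in normoxia and 5.81, 5.62, 5.61, 5.58 and 5.76 in intermittent hypoxia. Normoxia arrays 1 and 5 lay inside the hypoxia range, and the 3 highest values stood on normoxia arrays 2 to 4. Il12rb2 fell by 0.36 (SE 0.10, limma adjusted p = 0.0436). With these 3 arrays dropped together the changes were -0.19 for Il13ra2 and -0.10 for Il12rb2. Il13ra2 no longer passed if any of normoxia arrays 2 to 4 or hypoxia arrays 1, 3 and 4 was dropped (adjusted p up to 0.0904). Il12rb2 did not pass if any of normoxia arrays 2 to 4 or hypoxia arrays 1 to 4 was dropped (up to 0.112), nor with quantile normalization (0.0531).

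The receptor genes with the smallest p that did not pass were Il10rb, Il21r, Il1r2, Il17re and Il15ra. Of these, Il21r and Il1r2 lay below the median mark. Il10rb, a chain shared by interleukin-10 and interleukin-22 receptors, differed by 0.23 (SE 0.08, limma adjusted p = 0.0612), and Il21r, a lymphocyte receptor, by 0.24 (SE 0.08, adjusted p = 0.0688). The change of Il10rb was 0.10 (adjusted p = 0.281) with quantile normalization and 0.08 with normoxia arrays 2 to 4 dropped, while Il21r passed with quantile normalization (0.29, adjusted p = 0.0490). Il10rb passed in 5 of 20 alternative runs, among them the SAM-type test and the fits without normoxia array 1 or 5. Il1r2, a decoy receptor for interleukin-1 found on neutrophils and other myeloid cells, differed by -0.33 (SE 0.12, adjusted p = 0.0776). Il15ra, which presents interleukin-15 to neighbouring cells, differed by -0.39 (SE 0.14, adjusted p = 0.0913). With normoxia arrays 2 to 4 dropped the change was -0.12 for Il1r2 and -0.14 for Il15ra. The signalling receptor Il1r1 differed by 0.11 (95% interval -0.11 to 0.32) and its co-receptor Il1rap by -0.23 (adjusted p = 0.0959). The 3 probe sets of Il1rap had changes from -0.32 to -0.08, and their mean passed as lower.

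Il18r1, the ligand-binding chain for interleukin-18, differed by 0.41 (SE 0.16, limma adjusted p = 0.109). It measured 9.32, 9.13, 9.19, 9.33 and 10.16 in normoxia and 9.65, 9.79, 9.83, 9.86 and 10.05 in intermittent hypoxia. Normoxia array 5 was the highest of all arrays, while the other 4 normoxia arrays lay below every hypoxia array. Its partner Il18rap, below the median mark, differed by -0.15 (SE 0.07, adjusted p = 0.180). Il4ra, the receptor chain shared by interleukins 4 and 13, differed by 0.23 (95% interval -0.03 to 0.48).

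Where a gene had several probe sets, some disagreed. Of 19 such members, 14 had probe sets of 1 sign and 5 of both, and of the 6 with a called probe set 5 also had one that did not pass. Il13ra1, the interleukin-13 receptor chain that pairs with Il4ra, had 5 probe sets with changes from -0.32 to 0.41. The one used differed by 0.26 (limma adjusted p = 0.305), while another rose by 0.41 (SE 0.08, adjusted p = 0.0125) and passed in each of the 10 fits that dropped 1 array. With normoxia arrays 2 to 4 dropped together the change of that other probe set was 0.29 and did not pass (limma adjusted p = 0.275). Il10ra, the interleukin-10 receptor chain of leukocytes, had probe sets at -0.25, -0.17 and 0.29, all below the median mark, and none passed.

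**Figure D3:**
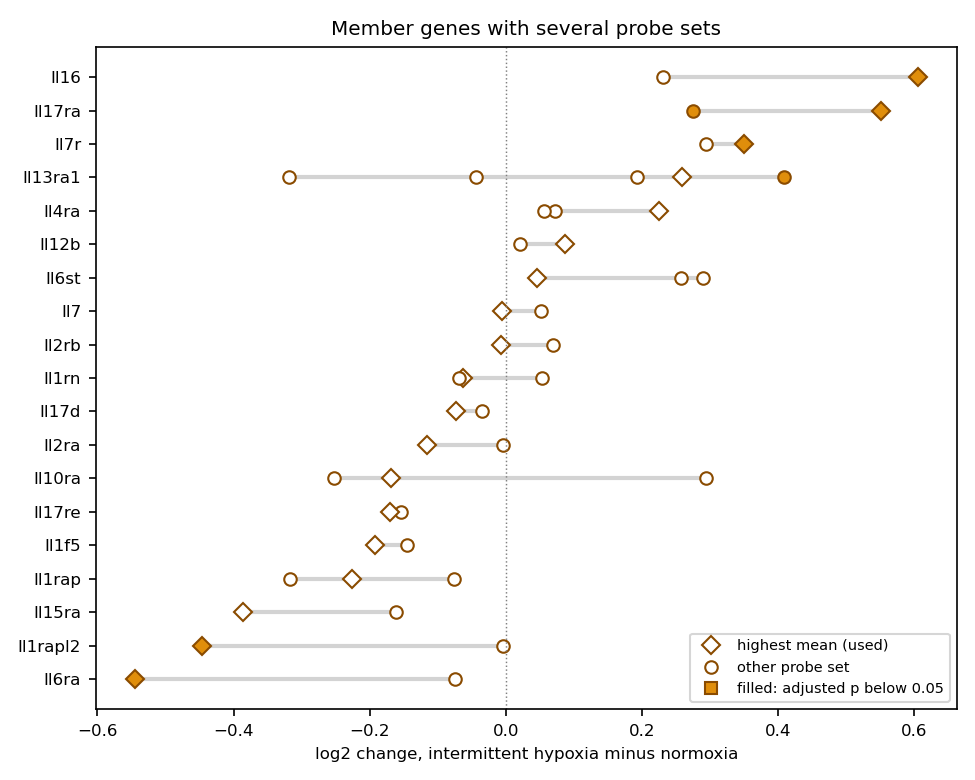
Log2 change, intermittent hypoxia minus normoxia, of each probe set of the 19 members with several; diamonds mark the probe set used, circles the others, and filled symbols those past the limma test. The probe sets of Il13ra1 span -0.32 to 0.41 and those of Il6ra -0.55 to -0.07.

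The direction of change went with the signal. Below the median mark 38 of 46 members were negative (median change -0.10), beside -0.06 over all 5170 genes below it, of which 67.5% were negative. At or above it 12 of 19 members were positive (median change 0.11), beside 0.09 over all 7223 such genes. Both medians were lower under other settings, at 0.04 for the members and -0.0087 for all such genes with quantile normalization, and at 0.06 and 0.01 with normoxia arrays 2 to 4 dropped. Of the 46 below the mark, 33 were negative with quantile normalization, with a median of -0.05, and with those arrays dropped it was 24, with a median of -0.0027. Within the normoxia group the median deviation of the 46 members from their gene means was 0.12, 0.13 and 0.09 on arrays 2, 3 and 4 and -0.03 and -0.05 on arrays 1 and 5. It ran from -0.09 to 0.01 on the hypoxia arrays. Normoxia arrays 2 to 4 held the 3 highest values in 13 of the 46 (28.3%) and in 18.5% of all genes below the mark. The part of the spread of these arrays in the falls of dim members was not tested beyond these values.

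**Figure D4:**
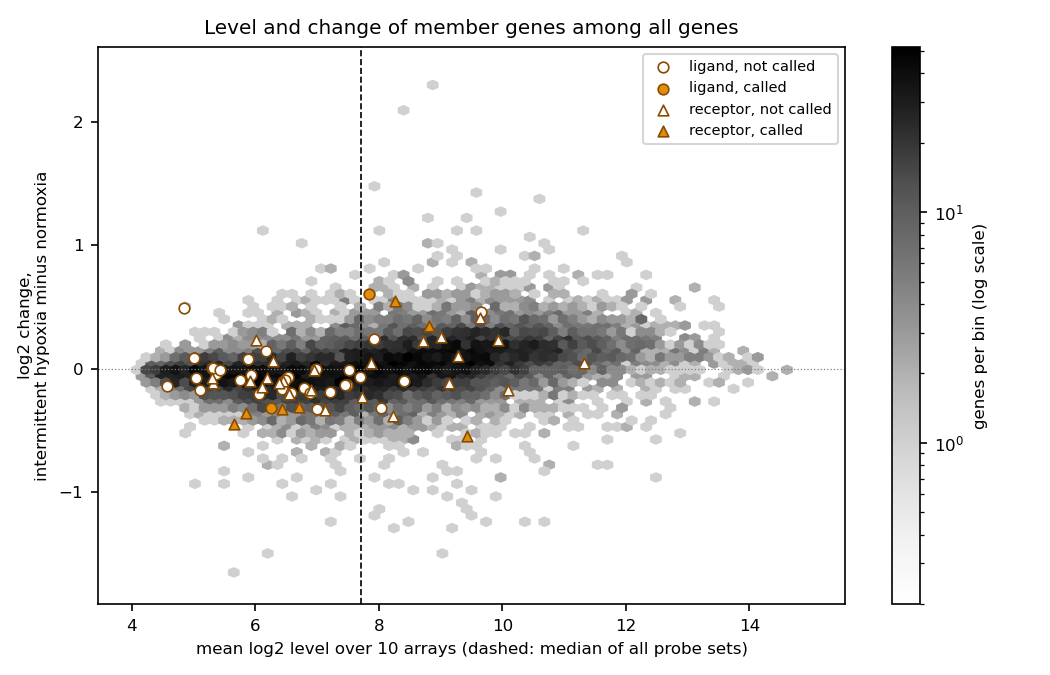
Mean log2 level over 10 arrays against the log2 change, intermittent hypoxia minus normoxia; grey bins count all 12393 genes on a log scale, circles are ligands, triangles receptors, and filled symbols passed the limma test. Members called higher lie at or above the dashed median line, and members called lower lie below it apart from Il6ra.

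**Figure D5:**
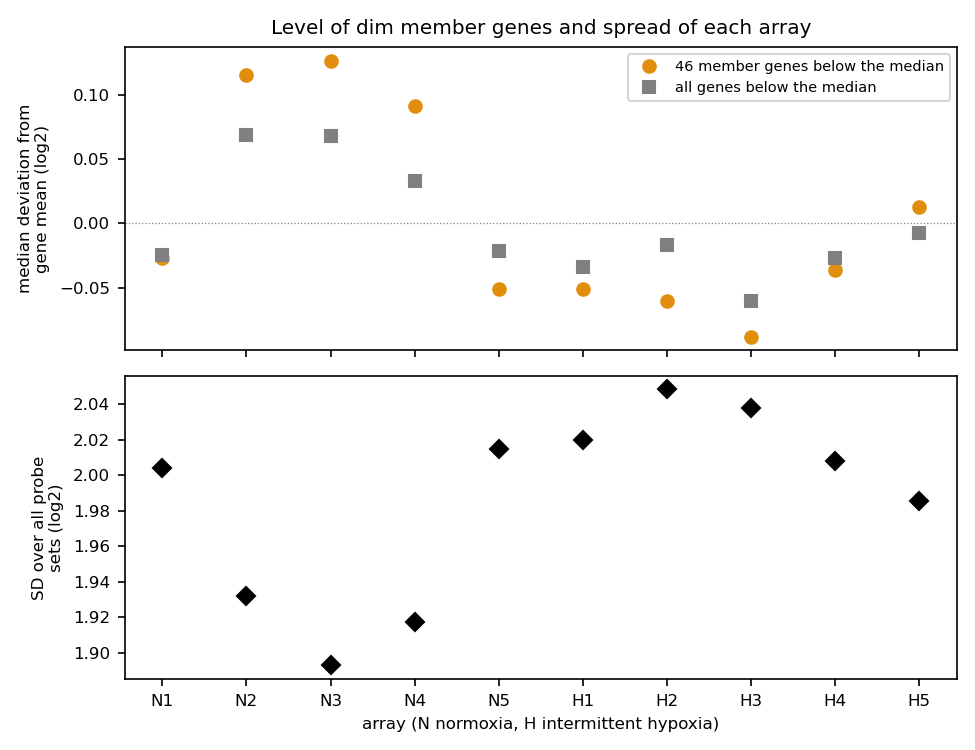
For each array, the median deviation of the 46 members and of all genes below the median mark from their means over 10 arrays (upper panel, log2), and the SD over all probe sets (lower panel, log2). Normoxia arrays 2, 3 and 4 have the highest upper values and the lowest SD.

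Of the genes through which these receptors signal, 37 of 43 listed were measured, 9 rose and 0 fell by limma's adjusted p (11 and 0 by its unadjusted p), with a median change of 0.10. Over all genes 8.93% were higher, and over those at or above the median mark, where 28 of the 37 lay, 13.6% were higher with a median change of 0.09. By limma's unadjusted p below 0.05, 19.9% of all genes and 29.5% of those at or above the mark were higher, and 12.7% and 9.12% lower. Casp1, the protease that matures interleukin-1β and interleukin-18, rose by 0.45 (SE 0.07, limma adjusted p = 0.00609). Ptpn6, a phosphatase that restrains cytokine receptors, rose by 0.66 (SE 0.14, adjusted p = 0.0132), and Jak1, a kinase bound to gp130 and common gamma chain receptors, by 0.63 (SE 0.14, adjusted p = 0.0163). Csf2rb and Csf2rb2, the β chains of the interleukin-3 and interleukin-5 receptors, rose by 0.56 and 0.45 (adjusted p = 0.0184 and 0.0133), but they are near-identical copies whose signals may be shared. Crlf2, which joins Il7r in the TSLP receptor, rose by 0.40 (SE 0.09, adjusted p = 0.0184). Of these genes, Casp1, Csf2rb and Csf2rb2 lay below the median mark.

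The other 3 that passed, Pycard, Csf2ra and Irak1, were named after their values were seen, at 0.54, 0.31 and 0.31, and passed in 6, 4 and 3 of the 10 fits that dropped 1 array. Csf2rb and Crlf2 did not pass without normoxia array 4 (adjusted p = 0.0559 and 0.0551). The count was 4 without normoxia array 4. With normoxia arrays 2 to 4 dropped together limma called 0. The change of Jak1 was then 0.33, that of Csf2ra 0.16 and that of Irak1 0.13, while that of Casp1 was 0.37. With quantile normalization 7 rose and Lifr, the receptor of leukemia inhibitory factor, fell by 0.22 (adjusted p = 0.0388). The genes Stat3, Socs3 and Myd88 are on the list and did not pass.

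Some markers of cells that make or carry interleukins passed the test and most did not, beside the 12.5% of all genes called. Of 7 B cell markers 4 rose, and the summed level of the 7 (log2 of the sum of linear levels) was 10.5 to 11.4 in normoxia and 11.3 to 12.2 in intermittent hypoxia. Cr2 differed by 0.35, Fcer2a by 0.38 and Pax5 by -0.13 without passing. With normoxia arrays 2 to 4 dropped none of the 4 passed, and Cd79a differed by 0.50 in place of 1.01 and Cd79b by 0.66 in place of 1.12. Of 9 T cell markers 3 rose, among them Cd3d by 0.49, while Cd4 differed by -0.22 and Cd3e by -0.09 without passing. The median T cell change was 0.06, and the summed levels were 10.3 to 10.6 and 10.4 to 10.6, with Cd4, Cd8a and 5 others below the median mark. Of 5 NK cell markers 1 rose, with summed levels of 9.91 to 10.3 and 10.1 to 10.5. These values stand beside the rises of Il16 and Il7r, which lymphocytes express, and their part in those rises was not tested.

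Of 9 neutrophil markers 2 fell, Ltf by 1.19 and Mmp8 by 0.49 on the log2 scale, with summed levels of 11.7 to 13.2 in normoxia and 11.8 to 12.5 in intermittent hypoxia. Neutrophils carry Il1r2 and Il6ra, and the part of these cells in the values of both genes was not tested. Of 7 macrophage markers 2 rose (summed levels 11.8 to 12.0 and 11.6 to 12.8), and of 8 dendritic cell markers 1 rose (10.8 to 10.9 and 10.9 to 11.3). By limma's unadjusted p below 0.05, 3 macrophage markers were higher and 1 lower, and 2 dendritic cell markers were higher and 1 lower. The lower macrophage marker was Adgre1 at -0.21, and Msr1 differed by -0.05. Chil3, the brightest macrophage marker, weighs most in their sum and ran from 10.18 to 12.19 on hypoxia arrays without passing. No marker of mast cells and basophils (8 measured, summed levels 10.6 to 10.8 and 10.7 to 10.9) or of eosinophils (4 measured, 7.37 to 7.67 and 7.37 to 7.53) passed the limma test, and 1 in each list had an unadjusted p below 0.05. These were Mcpt4 at -0.21 and Siglecf at 0.19, and the median changes of the lists were -0.11 and -0.08. Kit, the brightest of the 8 mast cell and basophil markers (mean 10.02), weighs most in their sum and differed by 0.20 without passing. All 4 eosinophil markers and 7 of 8 mast cell and basophil markers lay below the median mark, as did Il4, Il5, Il13 and Il5ra.

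Tissue markers were read in the same way. Of 7 fibroblast markers 5 rose, with summed levels of 14.0 to 14.5 in normoxia and 14.5 to 14.7 in intermittent hypoxia. Those 5 were the collagen genes Col1a1, Col1a2, Col3a1, Col13a1 and Col14a1, while Pdgfra differed by -0.14 and Dcn by 0.22 without passing. With normoxia arrays 2 to 4 dropped none of the 7 passed, and their median change was 0.44 in place of 0.60. These values stand beside the change of Il33, which stromal cells store, and their part in it was not tested. Of 8 alveolar epithelial markers 1 rose (16.1 to 16.3 in both groups), and of 7 endothelial markers 1 rose (13.9 to 14.4 and 14.1 to 14.5). That endothelial marker was Emcn, the 1 marker of any list that still passed with normoxia arrays 2 to 4 dropped together (limma adjusted p = 0.00775). Of 4 adipose markers 1 fell (9.86 to 10.86 and 9.41 to 10.01). Of 6 cardiac muscle markers 0 passed by limma's adjusted or unadjusted p (13.8 to 14.1 and 13.5 to 14.2), and of 4 thymocyte markers Cd8b1 alone rose (8.61 to 9.05 and 8.59 to 8.84).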

How the data were processed

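Total RNA of 10 whole lungs was hybridised to Affymetrix Mouse Genome 430A 2.0 arrays, 1 per animal, per the labels. The authors deposited log2 levels per probe set. The submitters' processing notes list RMA and affy and give no version. All 22626 probe sets were tested unfiltered. In the platform annotation 20380 carried a single symbol, 691 several and 1555 none. Groups were compared by two-sided tests of limma 3.58.1 (lmFit, eBayes; R 4.3.3), and p was adjusted by Benjamini-Hochberg across the whole table and called below 0.05. It measures the spread between animals. A gene with several probe sets was read from the brightest one on average. The number of arrays limits the precision.

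Members, lists and the rule for named genes were chosen with earlier results of these data known. The rule named each member that passed, the 5 ligands and 5 receptors with the smallest p that did not, the 3 brightest of each, members whose probe sets disagreed, and up to 6 passing pathway genes. It allowed any member at or above the median, and not every name it allows was used. Further members are given to complete a family and were chosen after their values were seen. Alternatives were a SAM-type test with 100 permutations (SAM is named in the series' design text), a replicate block, quantile normalization, median centring, a filter to brighter probe sets, eBayes with trend and robust options, arrayWeights, a threshold of 0.10, averaging each gene's probe sets, each array left out in turn, and normoxia arrays 2 to 4 left out together. The tools were tested on simulated data.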

Additional observations from a re-analysis of the deposited data

Results flagged for a closer look

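Within a group of 5 arrays, 1 array lay far from the other 4 in 6 of 130 groups of member values (4.62%), and chance gives such a value in about 1 in 20 groups. Normoxia array 5 was the highest of its group in Il18r1 at 10.16 and in Il6ra at 9.99, and the lowest in Il9 at 6.56. Normoxia array 1 was the lowest of its group in Il17rd at 6.09, and normoxia array 2 the lowest in Il12a at 5.61. Hypoxia array 5 was the highest of its group in Il2 at 7.003.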

How the results depend on the processing

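None of the 9 called members changed sign under an alternative run. Il16, Il17ra and Il6ra passed in 19 of 20 alternatives each, the exception being normoxia arrays 2 to 4 dropped together, where limma called 0 ligands, 0 receptors and 16 probe sets. As deposited, 2 ligands, 7 receptors and 2699 probe sets were called. Leaving out 1 array gave 1 to 5 ligands, 2 to 13 receptors and 1003 to 4800 probe sets. The SAM-type test gave 5 ligands and 4521 probe sets. Its median version, added after the data were seen, gave 12 ligands, 17 receptors and 7816 probe sets, so the count depended on how calls in the permutations were averaged. ArrayWeights gave 5 ligands and 4132 probe sets, and a threshold of 0.10 gave 8 ligands, 13 receptors and 4954 probe sets. Testing brighter probe sets alone left 1 ligand and 3 receptors called, as 5 and 14 were then tested. The labels do not say that replicate numbers pair animals, the correlations of same-numbered arrays ran from -0.24 to 0.22, and not every array correlated best with its own number. With the replicate block 1 ligand and 1755 probe sets were called, and Il4 (adjusted p = 0.0657) and Il12rb2 (0.0875) were not. Why the counts moved between these settings was not tested. The number of arrays and dim probe sets limit what can be called.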

Other observations

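Receptor genes that lie next to each other differed in their values. On chromosome 1 the measured genes of the interleukin-1 receptor cluster, in their order, differed by -0.33 for Il1r2, 0.11 for Il1r1, -0.32 for Il1rl2, 0.41 for Il18r1 and -0.15 for Il18rap, and of these Il1rl2 passed the limma test. On chromosome 2 all 8 measured genes of the interleukin-1 ligand family, from Il1f8 to Il1b, had changes between -0.19 and -0.01, and none passed. All but Il1b lay below the median mark, where 67.5% of all genes were negative. On chromosome 11 the type 2 cytokine genes Il4, Il13 and Il5 differed by -0.32, -0.05 and -0.09.

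A probe set annotated to both Il22 and Iltifb was left out by the symbol rule. It differed by -0.12 (limma adjusted p = 0.149), with hypoxia arrays between 4.41 and 4.45 and normoxia arrays between 4.43 and 4.60.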
